A study of Homo sapiens with 8 samples.

Results

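The expression of 35 imprinted genes was examined in HCT116, a human colorectal cancer cell line, to ask how these genes respond when DNA methyltransferases are inhibited and whether the response differs when the dioxygenase *TET1* is depleted. The genes were chosen by name: every non-control probe whose gene name in the files is 1 of the 35 was taken, which gave 53 probes out of 50599 distinct probes on the array. Of the 35 genes, 29 had a probe bright enough to test (above background in both clones of a condition), of 19688 genes with such a probe in all. Of the 53 probes, 43 were tested. The remaining 6 genes (*SNRPN*, *SNURF*, *NDN*, *ZIM2*, *RTL1* and *DLX5*) were not tested. Passing this filter through 1 bright condition favors genes that differ, so the counts below apply to the 29 tested genes only.

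Imprinted genes are expressed mainly from the copy inherited from the mother or from the copy inherited from the father. The choice is set by differentially methylated regions, where DNA methylation is placed on a single parental copy in the germ line and then copied at each cell division. Many lie in clusters in which a single methylated control region and a long noncoding RNA act on several genes, and loss of imprinting at *IGF2* and *H19* is a well-known event in colorectal cancer. An expression array sums both parental copies, so none of the values below assigns RNA to an allele.

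Each of 4 clones was profiled untreated and after 1 µM 5-aza-dC, a nucleoside analog that traps DNA methyltransferases, for 72 h. CONT1 and CONT2 carry a control miRNA plasmid. TET1-KD1 and TET1-KD2 were made with 2 different artificial miRNAs against *TET1*, so clone and miRNA cannot be told apart between them. All 4 clones were selected in G418. Each condition therefore holds 2 arrays from 2 clones, each clone grown from a single colony, and a p-value measures the spread between clones. The treatment was read from the array titles, because another label assigns mock to every control array and 5-aza-dC to every knockdown array. CONT1 and CONT2 after 5-aza-dC were hybridized to a slide scanned 230 days after the slide that held the other 6 arrays. The response of the control clones, the comparison of treated clones and the difference in response therefore cannot be told apart from the slide, while the response of the knockdown clones and the untreated comparison lie within the first slide.

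Each array had 29490 to 34276 spots well above background. Both *TET1* probes that were above background on all 8 arrays read lower in untreated TET1-KD1 and TET1-KD2 than in CONT1 and CONT2, with log2 differences of -0.98 and -0.69 that did not pass the test across all probes (adjusted p = 0.585 and 0.61). A further *TET1* probe was above background on the untreated control arrays alone, at least 1.20-fold higher there than in the untreated knockdown clones (adjusted p = 0.37). On the *TET1* probe A_33_P3295550 the untreated levels were 9.70 and 9.75 in the control clones, 8.65 in TET1-KD1 and 9.41 in TET1-KD2. Of 12 colorectal epithelial markers, 10 were above background on all 8 arrays. The 7 germ cell genes chosen to check the treatment label were called higher after 5-aza-dC in both kinds of clone. Summed levels of the fibroblast, leukocyte and endothelial marker lists were also higher after 5-aza-dC in all 4 clones (log2 8.47 to 8.86 untreated and 10.06 to 10.81 treated for the 8 fibroblast genes, of which 4 were not above background on any array; 7.86 to 8.12 and 9.47 to 11.16 for the 6 leukocyte genes; 6.65 to 6.91 and 7.62 to 8.18 for the 4 endothelial genes), and their part in the changes below was not tested. In such bulk RNA, fewer cells expressing a gene and less RNA per cell cannot be told apart.

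Promoter sequences are shown for *MEG3*, *ZDBF2* and *NAP1L5*, which are 3 of the 4 genes that rose in both kinds of clone (the other is *NNAT*), and for a pair of contrasting loci, since the drug acts on methylated CpG dinucleotides. RefSeq promoter windows of 300 bases (250 before to 50 after the transcription start, GRCh38.p14) were matched by symbol for 22 of the 35 genes, and the window with the most CpG was used where a gene had several. In the sequences below, capitals mark each CG. The *PLAGL1* window is also that of *HYMAI*, and neither gene was called. The *SNURF* window is also a window of *SNRPN*, and neither gene was above background on any array.
MEG3, chr14:100825858-100826157, plus strand: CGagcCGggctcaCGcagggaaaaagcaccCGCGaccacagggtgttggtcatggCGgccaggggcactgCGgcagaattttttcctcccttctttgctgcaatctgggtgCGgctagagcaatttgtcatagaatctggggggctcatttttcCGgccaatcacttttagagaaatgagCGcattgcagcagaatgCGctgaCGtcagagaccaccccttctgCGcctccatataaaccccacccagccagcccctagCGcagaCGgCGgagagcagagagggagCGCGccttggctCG
ZDBF2, chr2:206274760-206275059, plus strand: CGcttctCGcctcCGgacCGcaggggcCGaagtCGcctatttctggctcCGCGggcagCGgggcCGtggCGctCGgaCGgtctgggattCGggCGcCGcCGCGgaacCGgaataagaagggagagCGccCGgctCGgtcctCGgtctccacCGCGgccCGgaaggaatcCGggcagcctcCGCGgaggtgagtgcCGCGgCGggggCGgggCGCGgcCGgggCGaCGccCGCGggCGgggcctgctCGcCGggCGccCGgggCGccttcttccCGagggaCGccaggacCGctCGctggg
NAP1L5, chr4:88697780-88698079, minus strand: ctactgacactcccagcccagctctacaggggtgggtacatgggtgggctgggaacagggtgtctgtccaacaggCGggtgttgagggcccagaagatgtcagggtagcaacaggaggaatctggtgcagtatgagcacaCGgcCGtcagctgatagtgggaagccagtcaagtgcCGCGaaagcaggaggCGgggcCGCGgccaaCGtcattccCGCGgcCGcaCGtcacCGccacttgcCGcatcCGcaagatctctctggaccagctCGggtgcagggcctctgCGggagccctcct
PLAGL1 and HYMAI, chr6:144008210-144008509, minus strand: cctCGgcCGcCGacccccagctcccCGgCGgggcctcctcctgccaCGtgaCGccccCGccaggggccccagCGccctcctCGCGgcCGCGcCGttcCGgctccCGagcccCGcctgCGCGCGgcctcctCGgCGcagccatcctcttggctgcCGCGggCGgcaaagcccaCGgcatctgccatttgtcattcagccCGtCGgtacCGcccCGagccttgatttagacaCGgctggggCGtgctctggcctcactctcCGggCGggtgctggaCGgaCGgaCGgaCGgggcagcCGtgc
SNURF and SNRPN, chr15:24954737-24955036, plus strand: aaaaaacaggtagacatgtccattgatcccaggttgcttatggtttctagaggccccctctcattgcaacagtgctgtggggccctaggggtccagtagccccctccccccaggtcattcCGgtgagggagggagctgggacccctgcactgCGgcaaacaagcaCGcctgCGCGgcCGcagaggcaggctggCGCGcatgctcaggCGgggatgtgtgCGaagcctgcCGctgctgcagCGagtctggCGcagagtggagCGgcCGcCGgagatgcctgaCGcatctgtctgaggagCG

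These windows held 19 CG in *MEG3*, 50 in *ZDBF2*, 18 in *NAP1L5*, 39 in *PLAGL1* and 18 in *SNURF*. The median over the 22 genes was 25.5 CG per window, against 16 over all 27305 genes with a window. The 4 genes called higher in the control clones that had a window (*MEG3*, *ZDBF2*, *NAP1L5* and *INPP5F*) held 18 to 50 CG, and the 14 other tested genes held 6 to 49, so the ranges overlapped. The hexamer TGCCGC, the core of the sequence bound by the imprint-maintenance factor ZFP57 when it is methylated, was found on either strand in the windows of 12 of the 22 genes, or in 10 of their 20 distinct windows, since the 2 shared windows both hold it. Of all genes, 17.9% held it in the window chosen in the same way.

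Of the 29 tested genes, 11 were called higher and 4 lower after 5-aza-dC in the control clones, at an adjusted p below 0.05. These shares were 37.9% and 13.8%, where 20.5% of all tested genes were called higher and 21.3% lower. The median log2 difference was 0.71 over the 29 genes and -0.05 over all tested genes. In the *TET1* knockdown clones 4 genes were called higher (13.8%, with 9.45% of all genes higher) and 0 lower (3.09% of all genes), with a median log2 difference of 0.12 against -0.06. The 4 genes, *MEG3*, *NNAT*, *NAP1L5* and *ZDBF2*, were also called higher in the control clones. At an unadjusted p below 0.05, 8 of the 29 genes differed in the knockdown clones (29% of all genes), and the methods' t-test called 0 adjusted and 3 unadjusted (17.3% of all genes unadjusted). With the clone as a replicate block, 7 genes were called higher in the knockdown clones (*MEG3*, *NNAT*, *ZDBF2*, *H19*, *IGF2*, *CDKN1C* and *INPP5F*). That fit called 15.7% of all genes in either direction, against 12.5% without the block. Over single clones, 14 of the 29 genes were higher after 5-aza-dC in all 4 clones and 5 were lower in all 4. The share of all genes with such a shared direction was not computed, so these counts describe the 29 genes only.

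Genes were grouped by the copy expressed where they are imprinted. Of the 15 tested genes of the paternally expressed set, 7 were called higher in the control clones and 0 lower. Of the 10 tested genes of the maternally expressed set, 3 were called higher and 4 lower. Of all tested genes, 20.5% were higher and 21.3% lower. The 4 genes that fell, *KCNQ1*, *SLC22A18*, *UBE3A* and *PPP1R9A*, were all placed in the maternally expressed set. *UBE3A* is imprinted in neurons, and whether any of these genes is imprinted in HCT116 was not measured. These counts are a description, since the sets were made with the results known.

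**Figure D1:**
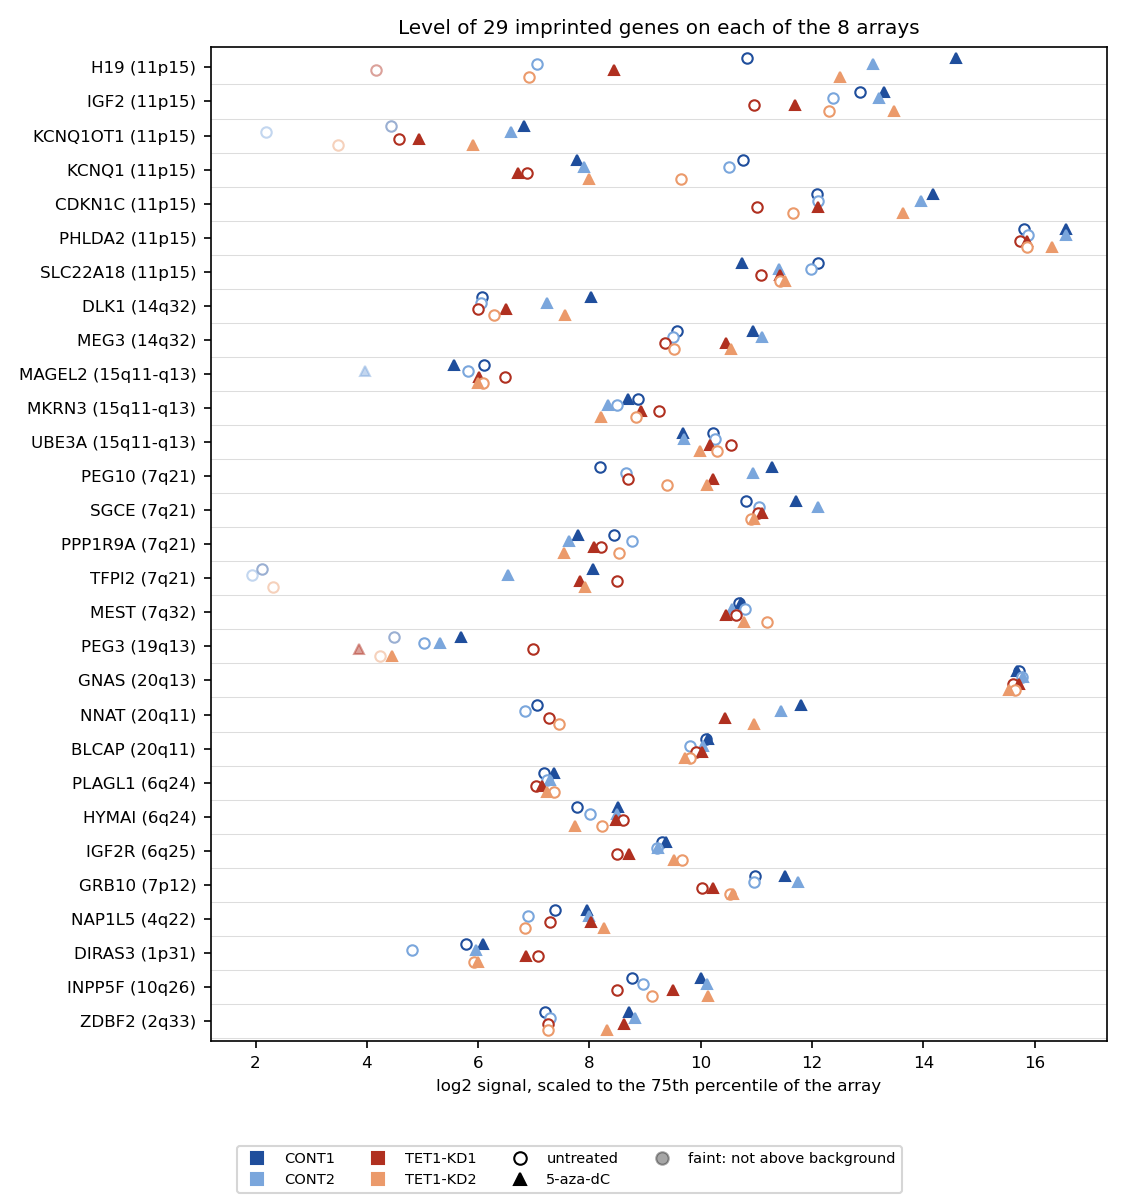
Log2 signal of the 29 tested imprinted genes, each on its brightest tested probe, with 1 symbol per array. Colors give the clone, open circles untreated cells, filled triangles cells after 5-aza-dC, and faint symbols arrays on which the probe was not above background. *H19*, *NNAT* and *TFPI2* spanned the widest ranges, while *GNAS*, *PLAGL1* and *BLCAP* stayed within narrow ones.

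**Figure D2:**
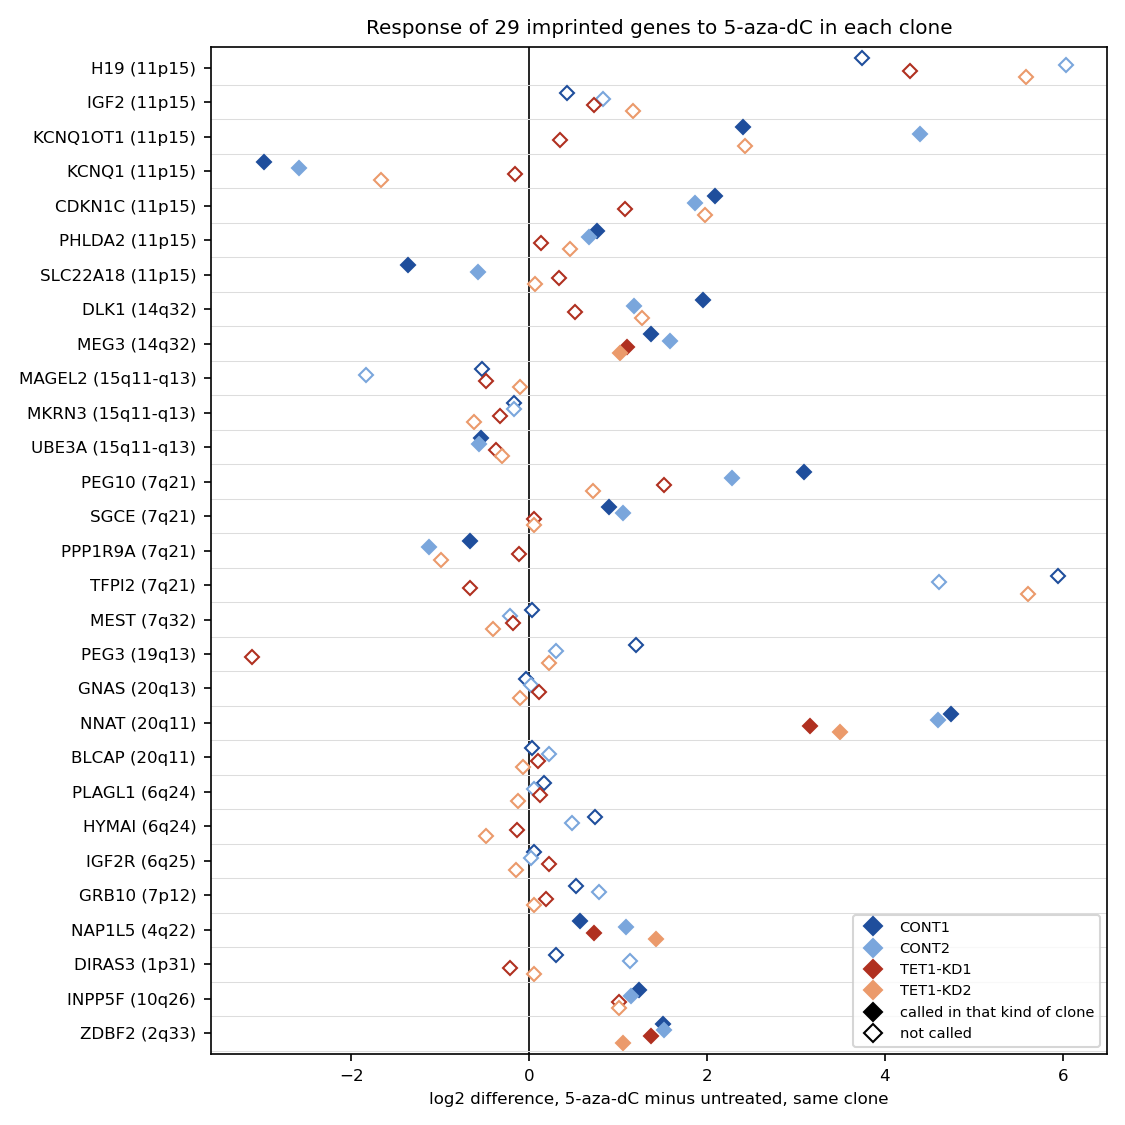
Log2 difference between 5-aza-dC and untreated cells of the same clone for the same 29 genes, with 1 diamond per clone. Filled diamonds mark genes called in that kind of clone. *NNAT* rose by 4.74 and 4.60 in the control clones and by 3.16 and 3.50 in the knockdown clones, and *KCNQ1* fell most in CONT1 and CONT2.

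The *H19* and *IGF2* domain at 11p15 was studied first. *H19*, a maternally expressed noncoding RNA that hosts a growth-restraining microRNA, differed widely between clones before treatment. In the order CONT1, CONT2, TET1-KD1 and TET1-KD2, which is used for every set of 4 values below, its log2 signal was 10.84, 7.06, 4.16 and 6.92 untreated and 14.58, 13.10, 8.44 and 12.51 after 5-aza-dC. The level was higher after treatment in every clone, CONT1 was the highest and TET1-KD1 the lowest both before and after, and untreated and treated values overlapped across clones. The mean log2 difference was 4.89 (SE 1.80, adjusted p = 0.0718) in the control clones and 4.93 (SE 1.80, adjusted p = 0.139) in the knockdown clones, neither of which passed the test. With the clone as a block, both passed (adjusted p = 0.00865 and 0.0219). A second *H19* probe moved in the same direction by 3.62 and 4.17 and was not called.

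*IGF2*, the paternally expressed growth factor that shares enhancers with *H19*, had signals of 12.87, 12.37, 10.96 and 12.31 untreated and 13.30, 13.20, 11.69 and 13.48 treated. TET1-KD1 was again the lowest of the 4 clones in both states. The log2 differences of 0.63 (SE 0.66, adjusted p = 0.476) and 0.95 (SE 0.66, adjusted p = 0.41) were not called. With the clone as a block the knockdown value passed (adjusted p = 0.0472). *IGF2R*, which clears IGF2 from the cell surface, differed by 0.04 in both kinds of clone (SE 0.43, adjusted p = 0.95 and 0.968). Among 16 tested genes of IGF and insulin signalling, 2 were called higher and 2 lower in the control clones and 1 higher in the knockdown clones. Of all genes, 20.5% were higher and 21.3% lower in the control clones, and 9.45% were higher in the knockdown clones. *IGF2BP1*, an oncofetal protein that binds *IGF2* mRNA, rose by 2.42 in the control clones (SE 0.41, adjusted p = 0.00531) and at least 10.0-fold in the knockdown clones (adjusted p = 0.00189), where both untreated arrays were below background. In the control clones *IGFALS* also rose at least 3.55-fold, while *GRB7* fell by 1.79 and *INSR*, the insulin receptor, fell by 1.13 (adjusted p = 0.0059, 0.0103 and 0.0373).

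The neighboring *KCNQ1* domain showed rises and falls side by side in the control clones. *KCNQ1OT1*, the paternally expressed antisense RNA that silences the domain in cis, had signals of 4.43, 2.19, 4.58 and 3.48 untreated and 6.83, 6.59, 4.93 and 5.91 treated. Both untreated control values were below background and both treated ones above it, so its rise was at least 5.19-fold (adjusted p = 0.0153). In the knockdown clones the log2 difference was 1.39 (SE 0.77, adjusted p = 0.301), with the untreated TET1-KD1 array already above background. *CDKN1C*, a cell-cycle inhibitor expressed from the maternal copy, had signals of 12.09, 12.10, 11.02 and 11.66 untreated and 14.18, 13.96, 12.10 and 13.63 treated. Its values did not overlap between untreated and treated cells within either kind of clone. It rose by 1.97 in the control clones (SE 0.49, adjusted p = 0.0207), and its difference of 1.53 in the knockdown clones was not called (SE 0.49, adjusted p = 0.102) except with the clone as a block (adjusted p = 0.0347).

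*PHLDA2*, a maternally expressed growth restrainer of the placenta, had signals of 15.81, 15.89, 15.74 and 15.87 untreated and 16.57, 16.57, 15.87 and 16.32 treated. It rose by 0.71 in the control clones (SE 0.19, adjusted p = 0.0258) and differed by 0.29 in the knockdown clones (adjusted p = 0.373). *KCNQ1*, which encodes a potassium channel subunit of colon epithelium, moved the other way. Its signals were 10.76, 10.50, 6.88 and 9.65 untreated and 7.78, 7.91, 6.72 and 7.99 treated, so the untreated TET1-KD1 clone stood below the other untreated clones and already lay near the treated level. *KCNQ1* fell 6.88-fold in the control clones (log2 difference -2.78, SE 0.87, adjusted p = 0.0443), and the knockdown value of -0.91 was not called (SE 0.87, adjusted p = 0.555). *SLC22A18*, a maternally expressed transporter gene next to *PHLDA2*, had signals of 12.10, 11.99, 11.08 and 11.43 untreated and 10.74, 11.41, 11.42 and 11.51 treated. It fell in the control clones (-0.97, SE 0.25, adjusted p = 0.0253) and differed by 0.21 in the knockdown clones (SE 0.25, adjusted p = 0.649), and the difference between these responses did not pass (1.18, SE 0.36, adjusted p = 0.114).

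**Figure D3:**
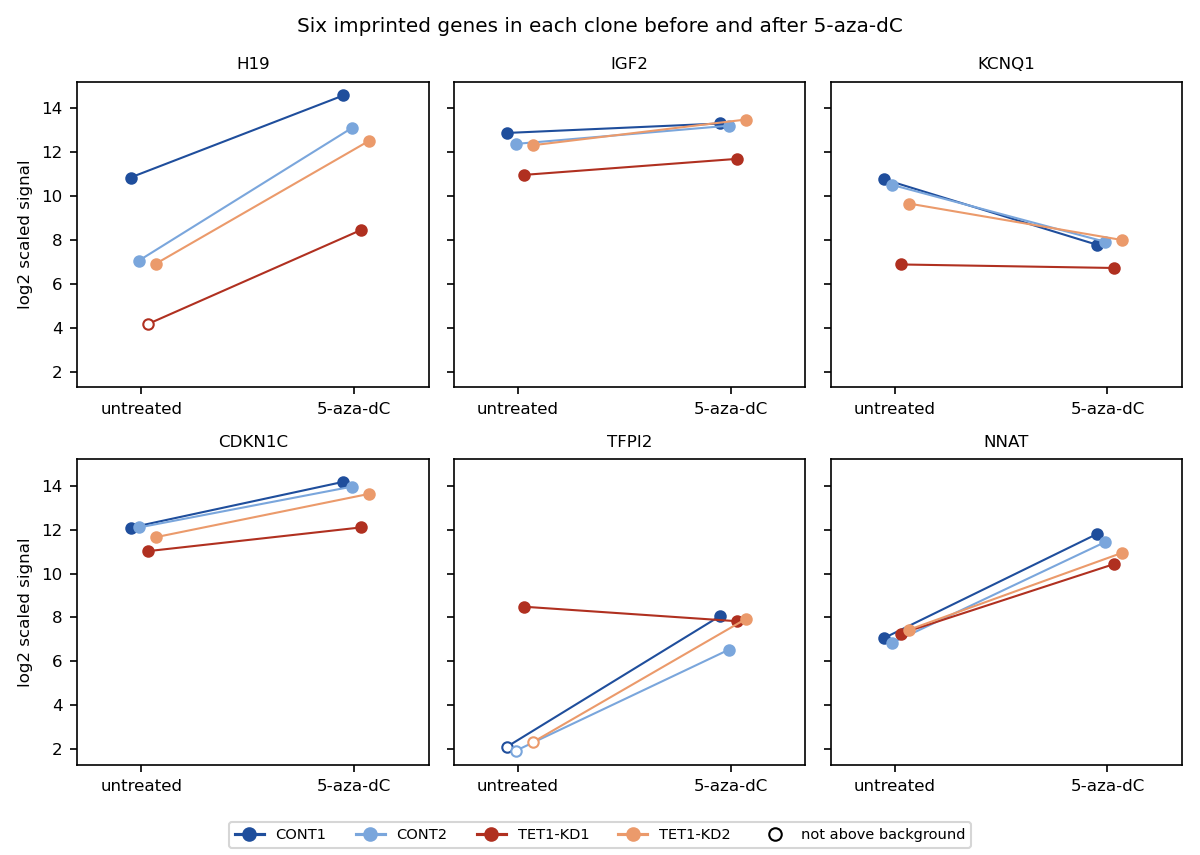
Log2 signal of 6 imprinted genes in each clone before and after 5-aza-dC, with lines joining the same clone and open symbols marking arrays below background. TET1-KD1 lay below the other clones for *H19*, *IGF2*, *KCNQ1* and *CDKN1C* in untreated cells and was the sole untreated clone with *TFPI2* above background (8.49), while *NNAT* rose in all 4 clones.

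The *DLK1* and *MEG3* domain at 14q32 held the steepest rises, and these depended on the probe. *MEG3* is a maternally expressed long noncoding RNA that is often silenced in tumors. Its brightest tested probe A_32_P40547 (hg19, chr14:101295974-101296033) had signals of 9.57, 9.51, 9.35 and 9.52 untreated and 10.94, 11.10, 10.45 and 10.55 treated. The groups did not overlap, and it rose 2.78-fold in the control clones (log2 1.48, SE 0.15, adjusted p = 0.000863) and 2.09-fold in the knockdown clones (1.06, SE 0.15, adjusted p = 0.00696). Probe A_33_P3255434, at chr14:101327286-101327345, rose from 5.29, 5.38, 4.64 and 5.15 to 14.65, 14.82, 13.98 and 13.95. Its log2 differences of 9.40 and 9.07 (SE 0.20 each, adjusted p = 1.73e-05 and 2.87e-05) correspond to 675-fold and 536-fold. Probe A_19_P00316675 was below background on all untreated arrays and above it on all treated ones, a rise of at least 9.73-fold and 6.01-fold (adjusted p = 0.000195 and 0.000329).

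A further *MEG3* probe, A_33_P3309501 at chr14:101325072-101325131, behaved differently. Its signals were 7.63, 7.54, 7.42 and 7.57 untreated and 5.54, 5.37, 7.30 and 7.74 treated. It fell 4.37-fold in the control clones (log2 -2.13, SE 0.19, adjusted p = 0.000601) and differed by 0.02 in the knockdown clones (SE 0.19, adjusted p = 0.954). The difference between the responses, 2.15 (SE 0.28, adjusted p = 0.0154), was the sole one that passed among the tested probes of the 35 genes, and it cannot be told apart from the slide. The files assign the *MEG3* probes to annotated transcripts and give their hg19 positions, with no strand or exon.

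*DLK1*, a paternally expressed Notch-like membrane protein of progenitor cells, also had probes of unequal response. The brighter one had signals of 6.07, 6.06, 5.99 and 6.29 untreated and 8.02, 7.24, 6.51 and 7.57 treated, all treated values above all untreated ones. It rose in the control clones (1.56, SE 0.40, adjusted p = 0.0234) and its difference of 0.90 in the knockdown clones was not called (SE 0.40, adjusted p = 0.211). The dimmer probe, A_24_P236251, went from 3.64, 4.50, 2.21 and 3.82 to 10.90, 9.87, 7.75 and 9.76. It was called in both kinds of clone, with a log2 difference of 6.31 in the control clones (SE 0.83, adjusted p = 0.00221) and a rise of at least 20.5-fold in the knockdown clones (adjusted p = 0.0077), where both untreated arrays were below background. *RTL1*, a retrotransposon-derived gene of the same domain, was not above background on any array.

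**Figure D4:**
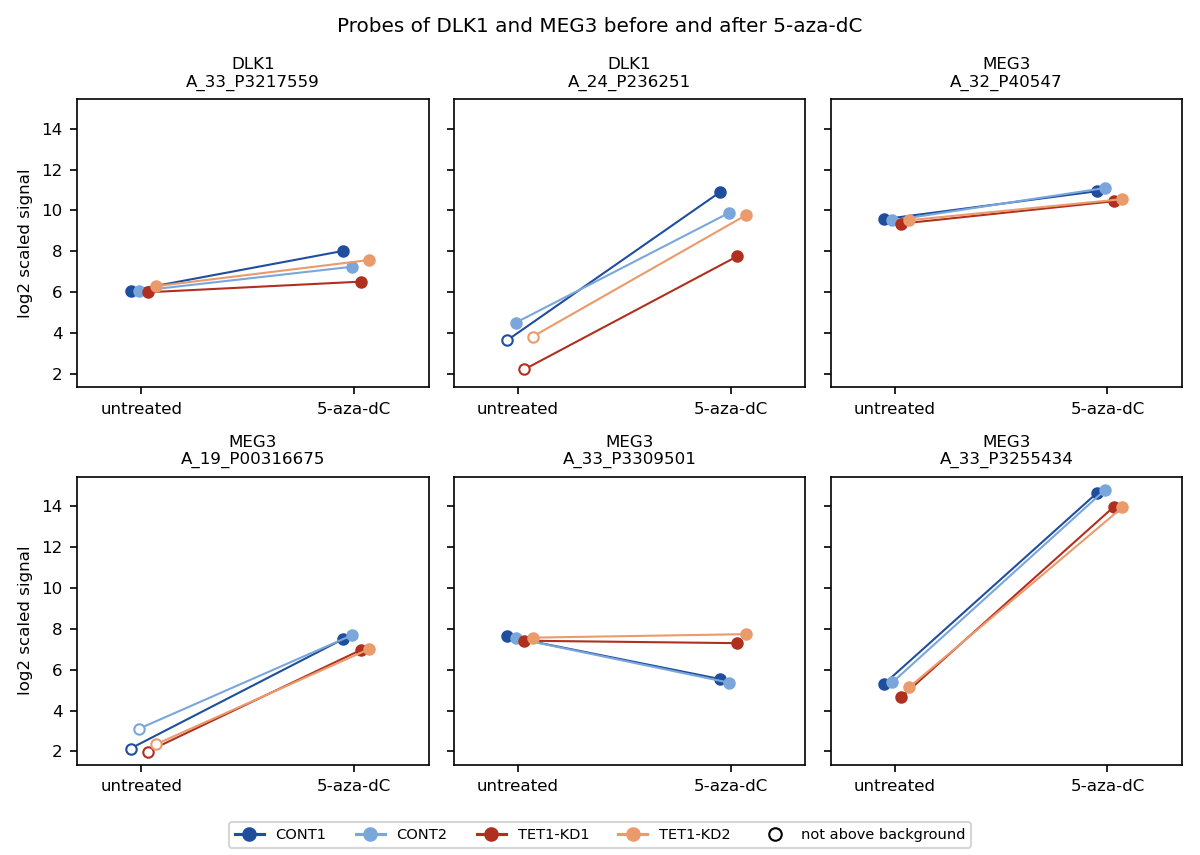
Log2 signal of each tested probe of *DLK1* and *MEG3* in the 4 clones before and after 5-aza-dC, with open symbols for arrays below background. *MEG3* probe A_33_P3255434 rose in every clone (log2 9.40 and 9.07), whereas A_33_P3309501 fell in CONT1 and CONT2 (log2 -2.13).

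Genes of the Prader-Willi and Angelman region at 15q11-q13 showed no called rise. *SNRPN* and *SNURF*, which share a transcript from the imprinting center, were below background on all 8 arrays. *NDN*, a paternally expressed growth suppressor, read between 2.00 and 2.39 in untreated cells and 6.01, 4.67, 4.90 and 4.09 in treated cells. It was above background only on the treated CONT1 and TET1-KD1 arrays, which gives at least 2.04-fold in the control clones and at least 1.07-fold in the knockdown clones, untested. *MAGEL2* (6.10, 5.81, 6.49 and 6.09 untreated; 5.57, 3.97, 6.01 and 5.99 treated) differed by -1.18 in the control clones (SE 0.49, adjusted p = 0.0988). *MKRN3*, an inhibitor of puberty onset, differed by -0.17 and -0.48 (SE 0.30, adjusted p = 0.682 and 0.366). *UBE3A*, the ubiquitin ligase of Angelman syndrome that is imprinted in neurons, had signals of 10.23, 10.26, 10.54 and 10.30 untreated and 9.69, 9.70, 10.17 and 9.99 treated. It fell in the control clones (-0.55, SE 0.16, adjusted p = 0.0316), and the knockdown difference of -0.34 was not called (adjusted p = 0.222).

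On chromosome 7, *PEG10*, a paternally expressed retrotransposon-derived gene, had signals of 8.19, 8.65, 8.70 and 9.40 untreated and 11.28, 10.94, 10.22 and 10.12 treated. All treated values were above all untreated ones. *PEG10* rose 6.43-fold in the control clones (log2 2.69, SE 0.29, adjusted p = 0.00107), and the knockdown difference of 1.12 was just outside the threshold (SE 0.29, adjusted p = 0.0584). *SGCE*, which encodes epsilon-sarcoglycan and shares a promoter region with *PEG10*, had signals of 10.81, 11.05, 11.03 and 10.91 untreated and 11.71, 12.11, 11.10 and 10.96 treated. It rose in the control clones (0.98, SE 0.19, adjusted p = 0.00915) and differed by 0.06 in the knockdown clones (SE 0.19, adjusted p = 0.888). *PPP1R9A*, which encodes the actin-binding protein neurabin, fell in the control clones on both of its probes (-0.89, SE 0.24, adjusted p = 0.0287, and -0.88, SE 0.20, adjusted p = 0.0147) and was not called in the knockdown clones (-0.55 and -0.19, adjusted p = 0.204 and 0.58). With the clone as a block the control call on the brighter probe was lost (adjusted p = 0.056). On that probe its signals were 8.45, 8.77, 8.20 and 8.54 untreated and 7.79, 7.64, 8.09 and 7.54 treated.

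*TFPI2*, a protease inhibitor gene that is a known methylation marker of colorectal cancer, had signals of 2.12, 1.93, 8.49 and 2.32 untreated and 8.07, 6.53, 7.83 and 7.93 treated. It was below background in 3 untreated clones and above it in untreated TET1-KD1 and on every treated array. The rise in the control clones was at least 7.92-fold and was not called (log2 difference 5.28, SE 1.80, adjusted p = 0.0571). In the knockdown clones the difference was 2.47 (SE 1.80, adjusted p = 0.43), made of -0.66 in TET1-KD1 and 5.61 in TET1-KD2. *MEST* at 7q32, a paternally expressed hydrolase gene of the mesoderm, differed by -0.09 and -0.29 (SE 0.23, adjusted p = 0.77 and 0.459), with all 8 signals between 10.46 and 11.19. *DLX5* was below background on all arrays.

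*PEG3* at 19q13, a zinc finger gene lost in several cancers, read 4.49, 5.02, 6.98 and 4.23 untreated and 5.69, 5.32, 3.86 and 4.46 treated, with 3 arrays below background. TET1-KD1 was the highest untreated clone and the lowest treated one, and neither difference was called (0.75 and -1.45, SE 0.82, adjusted p = 0.498 and 0.314). *ZIM2*, its neighbor, was below background throughout.

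At 20q11, *NNAT*, a paternally expressed proteolipid gene, lies within an intron of *BLCAP*. *NNAT* had signals of 7.06, 6.85, 7.27 and 7.45 untreated and 11.80, 11.44, 10.43 and 10.95 treated, with no overlap. It rose 25.4-fold in the control clones (log2 4.67, SE 0.23, adjusted p = 7.98e-05) and 10.1-fold in the knockdown clones (3.33, SE 0.23, adjusted p = 0.000393). *BLCAP* was not called on either probe, and its brighter probe differed by 0.13 and 0.02 (SE 0.18, adjusted p = 0.605 and 0.971). *GNAS* at 20q13 encodes the stimulatory G protein alpha subunit and several imprinted transcripts. Its brightest probe read between 15.54 and 15.79 on all 8 arrays and differed by -0.01 and 0.00 (SE 0.14, adjusted p = 0.953 and 0.989). A dimmer probe, A_24_P168574, rose in the control clones (1.46, SE 0.32, adjusted p = 0.0142) and another, A_24_P418809, fell (-0.69, SE 0.18, adjusted p = 0.023), while 2 further *GNAS* probes were below background on all arrays.

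Among the single loci, *ZDBF2* at 2q33, a paternally expressed zinc finger gene, had signals of 7.21, 7.30, 7.25 and 7.25 untreated and 8.71, 8.82, 8.62 and 8.31 treated. It rose by 1.51 and 1.21 (SE 0.16 each, adjusted p = 0.00103 and 0.00552). *NAP1L5* at 4q22, a histone chaperone-like gene, had signals of 7.38, 6.89, 7.29 and 6.84 untreated and 7.95, 7.99, 8.02 and 8.27 treated. It rose by 0.83 (SE 0.24, adjusted p = 0.0332) and 1.08 (SE 0.24, adjusted p = 0.0361), and both calls were lost with the clone as a block (adjusted p = 0.051 and 0.0597). *INPP5F* at 10q26, a phosphoinositide phosphatase gene with an imprinted short transcript, had signals of 8.77, 8.97, 8.50 and 9.12 untreated and 10.01, 10.12, 9.51 and 10.13 treated. It rose in the control clones (1.20, SE 0.29, adjusted p = 0.0185), and the knockdown difference of 1.01 was not called (SE 0.29, adjusted p = 0.0758) except with the clone as a block (adjusted p = 0.0157). Another *INPP5F* probe, A_23_P35684, was called in both (1.00 and 0.99, SE 0.17, adjusted p = 0.00587 and 0.0161), and the third, A_33_P3238920, in neither (0.64 and 0.81, SE 0.33, adjusted p = 0.167 and 0.176).

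*PLAGL1*, a cell-cycle inhibitor of the transient neonatal diabetes locus at 6q24, differed by 0.11 and -0.01 (SE 0.16, adjusted p = 0.604 and 0.986), with all signals between 7.04 and 7.36. *HYMAI*, the noncoding RNA that starts in the same window, read 7.78, 8.01, 8.60 and 8.23 untreated and 8.52, 8.49, 8.47 and 7.74 treated. Its difference of 0.61 in the control clones was not called (SE 0.27, adjusted p = 0.119) except with the clone as a block (adjusted p = 0.0386), and that in the knockdown clones was -0.32 (adjusted p = 0.51). *DIRAS3*, a RAS-related tumor suppressor, differed by 0.72 and -0.08 (SE 0.51, adjusted p = 0.292 and 0.94), and its level was 5.78, 4.82, 7.07 and 5.93 in untreated cells.

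*GRB10*, an adaptor that restrains insulin signalling, had probes at chr7:50657752-50657786 and chr7:50657813-50657872 (hg19) that disagreed. The brighter read 10.98, 10.95, 10.03 and 10.53 untreated and 11.51, 11.74, 10.23 and 10.58 treated, and its differences of 0.66 and 0.12 were not called (SE 0.23, adjusted p = 0.0583 and 0.775). With the clone as a block the control value passed (adjusted p = 0.0227). The dimmer read 9.47, 9.56, 9.54 and 9.66 untreated and 10.42, 10.49, 10.28 and 11.01 treated, and it was called higher in both kinds of clone (0.94 and 1.04, SE 0.25, adjusted p = 0.0258 and 0.0472).

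In untreated cells, none of the 29 genes was called between the *TET1* knockdown and control clones by limma, where 0.0102% of all genes were called higher and 0.0102% lower. At an unadjusted p below 0.05, 3 genes differed (8.22% of all genes), all lower in the knockdown clones: *KCNQ1* (-2.36, SE 0.87), *SLC22A18* (-0.79, SE 0.25) and *GRB10* (-0.68, SE 0.23). The methods' t-test called 0 of the 29 genes, adjusted or unadjusted (6.53% of all genes unadjusted).

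After 5-aza-dC, 3 genes were called lower in treated knockdown clones compared with treated control clones and 0 higher, with 7.71% of all genes lower and 10.7% higher. They were *GRB10* (-1.22, SE 0.23, adjusted p = 0.0172), *SGCE* (-0.88, SE 0.19, adjusted p = 0.0278) and *NNAT* (-0.93, SE 0.23, adjusted p = 0.0423). The *NNAT* call was lost with the clone number as a block (adjusted p = 0.0618). That block pairs CONT1 with TET1-KD1 and CONT2 with TET1-KD2 by number alone. The dimmer *GRB10* probe differed by 0.18 (adjusted p = 0.633). Among the dimmer *MEG3* probes, A_33_P3255434 was lower (-0.77, adjusted p = 0.0464) and A_33_P3309501 higher (2.06, adjusted p = 0.00239) in the treated knockdown clones. At an unadjusted p below 0.05, 9 of the 29 genes differed (35.4% of all genes), and the methods' t-test called 0 adjusted and 4 unadjusted (21.6% of all genes unadjusted). The median difference over the 29 genes was -0.30, against -0.01 over all genes. The test of the difference in response itself called 0 of the 29 genes on their brightest probes by limma, where 3.63% of all genes were called in the positive and 1.64% in the negative direction. At an unadjusted p below 0.05, 4 genes differed (24.2% of all genes): the rise of *PEG10* (-1.56, adjusted p = 0.0824), *SGCE* (-0.93, adjusted p = 0.105) and *NNAT* (-1.34, adjusted p = 0.0745) was smaller in the knockdown clones, and *SLC22A18* differed in the positive direction. The methods' t-test called 0 adjusted and 3 unadjusted (23.8% of all genes unadjusted). The comparisons share the same arrays and are not independent of each other.

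These calls rest on 2 clones per condition. Of the 15 genes called in the control clones, 4 (*MEG3*, *PEG10*, *NNAT* and *ZDBF2*) stayed called whichever single array was left out. The count was 6 without untreated CONT1, 6 without untreated CONT2, 6 without treated CONT1 and 7 without treated CONT2, in fits that called 23.5%, 23.3%, 29.8% and 28.6% of all genes, against 41.8% with all arrays. Of the 4 genes called in the knockdown clones, *MEG3*, *NNAT* and *ZDBF2* stayed called in the same way, and *NAP1L5* did not (adjusted p up to 0.167). None of the 3 genes called between treated clones did, and 0 were called without treated CONT2 or without treated TET1-KD1. With all arrays scaled to the spike-in controls measured on slide 1, the control clones had 14 genes called higher and 0 lower. *PHLDA2* was then no longer called higher (0.56, adjusted p = 0.0637), so these 14 include genes not called in the main fit. On that scale the median of all tested probes moved from -0.08 to 0.33. *KCNQ1* (-2.14, adjusted p = 0.081), *SLC22A18* (-0.76, adjusted p = 0.0544), *UBE3A* (-0.08, adjusted p = 0.749) and *PPP1R9A* (-0.23, adjusted p = 0.524) were then no longer called lower. With no filter on dim probes the control clones had 10 of 35 genes called higher and 0 lower. In that fit 32.2% of the 19688 genes tested in the main fit were called, a share that leaves out dimmer genes.

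Other genes reported to be imprinted gave the wider setting. Of 43 tested genes of this kind, 13 were called higher and 4 lower in the control clones, where 20.5% of all genes were higher and 21.3% lower. For the knockdown clones the counts were 6 higher and 3 lower, beside 9.45% and 3.09% of all genes. The medians were 0.06 for control and -0.03 for knockdown clones. The rises shared by both included *ASCL2*, a Wnt target of intestinal stem cells, which was below background in every untreated clone and rose at least 23.9-fold and 12.7-fold (adjusted p = 0.00023 and 0.000669). The same held for *ZNF542*, next to the *PEG3* domain (at least 17.0-fold and 5.86-fold, adjusted p = 0.000138 and 0.00062). *MEG8*, a noncoding RNA of the *MEG3* domain, rose at least 9.24-fold and 5.61-fold (adjusted p = 0.000389 and 0.00261), and *GNAS-AS1* at least 4-fold and 2.86-fold (adjusted p = 0.00231 and 0.00816), again from untreated levels below background. On the log2 scale *FAM50B* rose by 5.07 and 3.56 (SE 0.56) and *ZFAT* by 1.24 and 0.79 (SE 0.19). *TRAPPC9* fell by 1.77 and 0.93 (SE 0.20). *AMPD3* and *ERAP2* fell in the knockdown clones (-0.98, SE 0.22, and -1.60, SE 0.34) and were not called in the control clones (-0.62 and 0.06).

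Of 49 tested neighbors of the clusters that are not imprinted, 11 were called higher and 9 lower in the control clones. These counts lay near the shares of all genes, 20.5% and 21.3%. In the knockdown clones 2 were higher and 1 lower (9.45% and 3.09% of all genes). The medians were 0.13 and -0.08. *NPEPPS* was listed in error, as it lies on a chromosome with none of these clusters, and without it the counts in the control clones were 11 and 8 of 48. *ZSCAN4*, a 2-cell-stage embryonic gene, rose by 4.18 in the control clones (SE 1.02) and at least 15.2-fold in the knockdown clones (adjusted p = 0.0134), where both untreated arrays were below background. *VSTM2L*, near *NNAT*, was below background in every untreated clone and rose at least 1.77-fold and 1.44-fold (adjusted p = 0.00304 and 0.0103), with 1 treated knockdown array above background. *FAM13A*, near *NAP1L5*, fell by 1.37 and 1.15 (SE 0.17). In the control clones *TRPM5*, a cation channel gene of 11p15, fell at least 5.41-fold to below background (adjusted p = 0.0059), and *TNNT3*, a skeletal muscle troponin gene near *H19*, rose at least 2.58-fold from below it (adjusted p = 0.00607).

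Factors that read or keep imprints formed a further list. Of 28 tested, 10 were called higher and 8 lower in the control clones, where 20.5% of all genes were higher and 21.3% lower. In the knockdown clones 6 were higher and 5 lower (9.45% and 3.09% of all genes). The medians were 0.28 and 0.03. *ZFP42*, a germline and stem cell zinc finger gene, rose from 3.29, 3.17, 4.06 and 2.64 to 14.31, 13.80, 12.80 and 12.91, with no overlap and at least 856-fold and 351-fold (adjusted p = 4.76e-05 and 1e-04). *ZFP57*, which protects methylated imprints in the early embryo, went from 2.07, 3.81, 2.97 and 2.58 to 9.03, 9.07, 8.64 and 9.09, a rise of at least 26.6-fold and 22.1-fold (adjusted p = 0.000511 and 0.000949). Both genes were below background in every untreated clone. So was *CTCFL*, the testis paralog of CTCF, which rose at least 9.99-fold and 11-fold (adjusted p = 0.00134 and 0.00152). *NLRP7* rose at least 9.33-fold in the control clones (adjusted p = 0.00303) and by 4.35 on the log2 scale in the knockdown clones (SE 0.77). *PADI6* was called higher in both (adjusted p = 0.00756 and 0.0311), by at least 1.12-fold and 1.16-fold with 3 treated arrays above background, and *ZNF274* rose by 0.89 and 0.89 (SE 0.22). Falls in both kinds of clone were called for *ZNF202* (-1.26 and -0.88, SE 0.16), *CTCF*, which binds the unmethylated *H19* control region (-0.57 and -0.59, SE 0.14), and *TRIM28*, the corepressor of ZFP57 (-0.54 and -0.61, SE 0.15). *UHRF1* and *EHMT1* were called lower in the knockdown clones (-0.74, SE 0.18, and -0.62, SE 0.14) and not in the control clones (-0.48 and -0.23).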

How the data were processed

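The authors deposited the scanner output of 8 one-color arrays (SurePrint G3 Human GE), in which Agilent Feature Extraction 10.7.3.1 had subtracted the background from the intensity of each spot. A deposited value table holds the same intensity values, rounded (within 0.6%). The methods name GeneSpring GX and t tests with Benjamini-Hochberg correction, while normalization and filters are not given in the sources used here. Arrays give no read depth, and precision is limited by their number.

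Here each intensity was divided by the 75th percentile of its array and multiplied by the geometric mean of these percentiles, floored at 1 and put on a log2 scale. Flagged spots were left out, and spots of a probe were averaged. A probe was above background on an array where at least 0.5 of its spots were, and 27287 probes entered the test because some condition had both of its arrays above background. The test was limma (3.58.1, R 4.3.3), with 1 fit over all 8 arrays, 4 condition means and Benjamini-Hochberg adjustment over all tested probes, two-sided. A gene was read on its brightest tested probe. "At least N-fold" sets the mean of the brighter group against, per array of the dim group, the higher of the lowest signal that was well above background and the probe's own signal. Untreated and treated arrays of the same clone carry the same clone name, and their deviations from the condition means correlated (r = 0.198 in control and 0.476 in knockdown clones, over 27287 probes), so the clone served as a block in an alternative fit. On simulated data with 200 probes changed by 2 log2 units among 27287, the fit recovered 60.5% in the control contrast and 62% in the knockdown contrast.

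The 35 genes and the further gene lists were chosen with earlier results of these data known. All members are described. From the lists, the genes called in the knockdown clones and the 3 with the largest called change in the control clones are named. DNMT1 and NLRP2 stand in 2 lists. Promoter sequences come from RefSeq (GRCh38.p14), and probe positions are those of the files (hg19). Alternatives covered background correction, quantile normalization, filters, flagged and saturated spots, the clone block, fewer arrays, the methods' t-test, a trend on probe GC content, spike-in scaling, the value table, averaging over all probes of a gene, and omission of single arrays or clones.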

Additional observations from a re-analysis of the deposited data

Results flagged for a closer look

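The response of *MEG3* probe A_33_P3309501 differed between the kinds of clone by 2.15 on the log2 scale in the interaction test (SE 0.28, adjusted p = 0.0154), with a fall in both control clones and a difference of 0.02 in the knockdown clones. The other tested *MEG3* probes rose in every clone. The treated control arrays lie on the second slide, so the difference cannot be told apart from the slide. It passed in 15 of 24 alternative fits, some of which left 1 array in a condition.

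*SLC22A18* fell in both control clones and was higher after treatment in both knockdown clones, a difference in response of 1.18 (SE 0.36) that did not pass the test (adjusted p = 0.114).

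The spike-in control E1A_r60_a135, which is no part of the comparisons, differed by -1.004 on the log2 scale between the second and the first slide (SD 0.036 over the 6 arrays of the first slide). It was picked as the most negative spike-in, and the brightest, E1A_r60_1, differed by -0.038. These signals were not scaled to the 75th percentile of the array. That percentile was 395.5 and 476.1 on the second slide and 546.3 to 623.7 on the first.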

How the results depend on the processing

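Counts are members called of 29, or of 35 with no filter on dim probes. The share of all genes called in either direction moved too. It was taken over the 19688 genes tested in the main fit, also with no filter. In the control clones it was 41.8% in the main fit, 15.9% with the adjusted t-test and 40.6% with spike-in scaling. It was 32.2% with no filter and 43.9% with the GC trend. In the knockdown clones it was 12.5%, 15.7% with the block and 6.67% on their own 4 arrays. Between treated clones it was 18.4%, 10.5% with no filter and 5.1% on their own 4 arrays. In the control clones (15 called), the methods' t-test with Benjamini-Hochberg gave 7, and the counts ranged from 6 to 17 when single arrays were left out and from 4 to 18 when clones were. Spike-in scaling gave 14 higher and 0 lower, against 11 higher and 4 lower, no filter on dim probes 10 and 0, and subtracting a trend on probe GC content 7 and 3. In the knockdown clones (4 called), the replicate block by clone gave 7, their own 4 arrays alone 1 and the t-test 0, with 3 to 5 over single arrays and 1 to 5 over clones. Between untreated clones (0 called), the range was 0 to 0 over arrays and 0 to 1 over clones. Between treated clones (3 called), no filter on dim probes gave 1, their own 4 arrays 0, the t-test 0 and spike-in scaling 6, with 0 to 4 over arrays and 0 to 6 over clones. For the difference in response (0 called), the unadjusted t-test gave 3 and spike-in scaling 1, with 0 to 2 over arrays and 0 to 0 over clones. No result changed sign with its call. A pooled spread was used where 1 array or clone of a condition was left, and leaving out clones was added after the data were seen. The cause of these shifts was not tested. The fit on the 4 arrays of the compared conditions could not be made for the difference in response, nor the first slide alone for comparisons with treated control clones. For the blocked fit, calls that changed stand beside the results.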

Other observations

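In the further gene lists, 4 genes, chosen here after their values were seen, differed in response between the kinds of clone. Of the 43 other imprinted genes, 1 was called in the positive and 2 in the negative direction. Of the 28 factors, 1 and 1 were called, with *DNMT1* in both lists. None of the 49 neighbors or 16 signalling genes was called, while 5.27% of all genes were. *MESTIT1*, a noncoding RNA antisense to *MEST*, was tested on probe A_33_P3418877. This probe read 2.06, 1.90, 1.91 and 2.27 in untreated CONT1, CONT2, TET1-KD1 and TET1-KD2 and 4.75, 5.42, 1.74 and 2.15 after 5-aza-dC. It was above background on the treated control arrays alone and entered the test through that condition. Such entry favors a called difference, so the p-values of this probe are not independent of the filter. On it *MESTIT1* rose at least 1.71-fold in the control clones (adjusted p = 0.000573), and the test of the difference in response passed (adjusted p = 0.0143), with no size given since 6 arrays were below background. Another *MESTIT1* probe, A_32_P83803, was not tested. It was above background on 1 untreated control array and on neither treated one, with control means of 4.04 untreated and 3.67 treated. *DNMT1*, the maintenance methyltransferase, rose by 0.74 in the control clones and differed by -0.54 in the knockdown clones (difference -1.27, SE 0.20, adjusted p = 0.026). *MBD3*, a subunit of a chromatin remodeling complex, fell by 1.28 in the control clones and differed by -0.18 in the knockdown clones (difference 1.10, SE 0.20, adjusted p = 0.0364). *AIM1*, listed among the other imprinted genes, fell by 2.17 in the control clones and differed by 0.28 in the knockdown clones (difference 2.46, SE 0.45, adjusted p = 0.0359). These contrasts cannot be told apart from the slide of the treated control arrays.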
